A study of Homo sapiens with 9 samples.

Results

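HCT116 is a human colon cancer cell line, and the comparison described here is that of its TIG1A stable line with its control stable line. Both lines carry pSwitch, which encodes a regulatory protein activated by mifepristone (MFP), and a pGene/V5 vector that is empty in control cells and holds the TIG1A reading frame (294 amino acids) in TIG1A cells. Every culture had received 5 nM MFP for 24 h, and 3 Affymetrix HG-U133 Plus 2.0 arrays were made per line. A TIG1B line (228 amino acids, 3 arrays, same treatment) was used for the spread between arrays and as a second line to set values against. Each line is 1 stable clone according to the methods of the study, and no culture without MFP was on the arrays, so the induced isoform and other differences between the clones cannot be told apart. Of 54675 probe sets, 28920 (13050 genes) were at or above the array median on 2 or more arrays of control or TIG1A cells. Of these, 2316 did so through the TIG1A arrays alone and 2326 through the control arrays alone.

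TIG1 is the product of RARRES1, a gene induced by retinoids and reported silenced in many carcinomas. The GeneSwitch system used for its induction rests on a fusion of the GAL4 DNA-binding domain, a truncated progesterone receptor domain that binds mifepristone, and the activation domain of NF-kappaB p65. Since mifepristone is also an antagonist of the progesterone and glucocorticoid receptors, control cells had received it as well. The study asked which genes change once a TIG1 isoform is present in colon cancer cells.

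RARRES1 itself had intensities of 4.65, 2.90 and 5.17 on the control arrays and of 66754, 58452 and 63438 on the TIG1A arrays. The control values lie below the array medians of 68.6 to 73.9, so the rise was at least 876-fold (adjusted p = 1.91e-07, limma's moderated test with Benjamini-Hochberg adjustment). On the same probe set TIG1B cells read 44513, 37082 and 36413, and the log2 difference of TIG1A minus TIG1B was 0.68 (adjusted p = 0.258). The signal therefore matches the labels as to whether a TIG1 isoform was induced, but does not tell TIG1A from TIG1B cells. The arrays of a line correlated with r = 0.930 to 0.944 (control) and 0.933 to 0.959 (TIG1A), and arrays of different lines with r = 0.905 to 0.928, over all kept probe sets. A single PGR probe set read 6915, 5895 and 7659 in control and 11464, 9476 and 9778 in TIG1A cells (adjusted p = 0.0545). PGR encodes the progesterone receptor, and pSwitch carries part of that receptor, so the endogenous gene and the vector cannot be told apart.

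In TIG1A cells 946 probe sets were higher and 1062 lower than in control cells at an adjusted p under 0.05, together 2008, or 6.94% of those tested (3.27% higher and 3.67% lower). Of these, 510 rose (1.76%) and 493 fell (1.7%) by at least 2-fold, 3.47% in all. Between TIG1A and TIG1B cells 0.453% of probe sets differed. The intensities of the 2 lines did not overlap for 31.6% of all probe sets. Counted by gene on its brightest probe set, 495 rose (3.79%) and 538 fell (4.12%), 7.92% in all, and the median log2 difference of all genes was -0.03. When arrays were centred on their medians, this moved the median log2 difference of all kept probe sets from -0.04 to 0.12, and the called probe sets were then 1460 higher and 420 lower. The share of higher calls thus went from 47.1% to 77.7%. In the gene lists below, counts and medians are to be read against these shares of all genes, 3.79% higher and 4.12% lower, and against the median of -0.03. The count depended on single arrays. Leaving out a control array gave 3379 (replicate 1), 529 (replicate 2) or 1308 (replicate 3). Leaving out a TIG1A array gave 1034, 520 or 532 in the same order, and TIG1B replicates 2 or 3 gave 924 or 900.

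**Figure D1:**
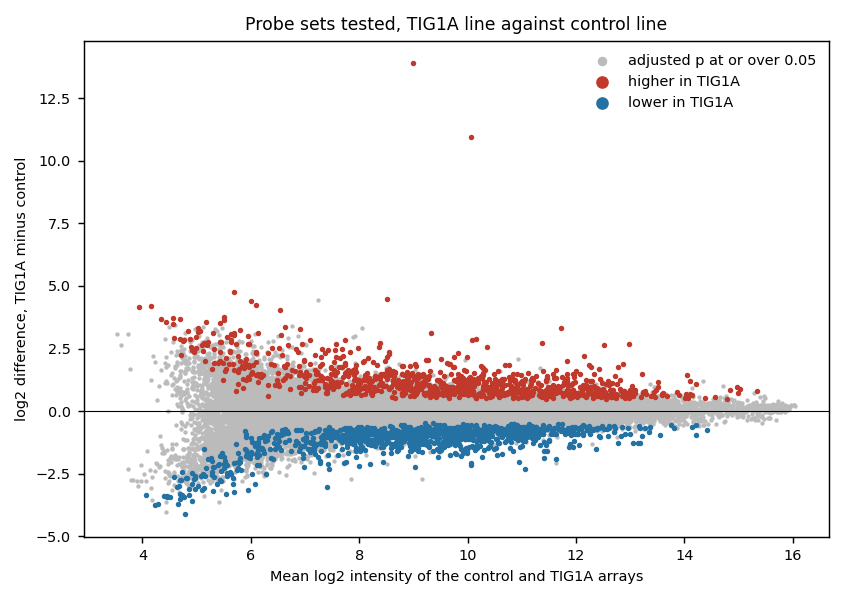
Log2 difference of TIG1A minus control (vertical axis) against the mean log2 intensity of both lines (horizontal axis) for the 28920 probe sets tested. Red points are the 946 called higher, blue points the 1062 called lower at an adjusted p under 0.05, and grey points the rest. The 2 RARRES1 probe sets stand alone at the top, where their heights rest on control values below the array medians and the rises are given only as at least 876-fold and 661-fold.

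The largest rises among probe sets above the array median on all 6 arrays were led by DHRS2, a short-chain dehydrogenase. DHRS2 read 794, 1284 and 1175 in control and 13321, 10120 and 9125 in TIG1A cells, a log2 difference of 3.33 ± 0.26 (SE, adjusted p = 0.00453). A further DHRS2 probe set gave 2644, 4050 and 2932 against 20379, 20359 and 20433. All TIG1A arrays lay far above all control arrays on both probe sets, while the TIG1B arrays read 1582, 1043 and 1485 on the first and 2609, 3302 and 4294 on the second, where they overlapped the control arrays. The difference between TIG1A and TIG1B was 2.99 (adjusted p = 0.0119). FBXO11, the substrate receptor of a ubiquitin ligase, rose by 3.11 ± 0.28, and DIO3, which inactivates thyroid hormone, by 2.90 ± 0.35. FBXO11 was also higher in TIG1B than in control cells (2.64, adjusted p = 0.0108). It was not called between TIG1A and TIG1B (0.48, adjusted p = 0.518). CLIC3, a chloride intracellular channel protein, rose by 2.84 ± 0.46, a call lost without control 2 (adjusted p = 0.0583). GRK5, a kinase that desensitises G protein-coupled receptors, read 1269, 627 and 1363 in control and 5837, 6695 and 8240 in TIG1A cells. TIG1B cells read 1990, 2882 and 2908 (1.31 against control, adjusted p = 0.0834). A further GRK5 probe set rose by 2.17 (adjusted p = 0.00547). Others were not called (0.65, adjusted p = 0.111, and 0.26, adjusted p = 0.613). The calls of both raised GRK5 probe sets held without any 1 array. So did those of PDLIM3, a protein of the actin cytoskeleton (log2 difference 2.71), RGS2, which shortens Gq signalling (2.63), and the actin-binding TWF1 (2.55). The same was true of the endoplasmic reticulum chaperone HSP90B1 (2.54), the chromatin reader BPTF (2.33), the small GTPase RAB2A (2.27) and the histidine methyltransferase METTL9 (2.21). Values in this ranking are from the most changed passing probe set of a gene, and its other probe sets may differ.

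FOSL1, a subunit of the transcription factor AP-1, had the largest fall among probe sets above the array median on all 6 arrays. It read 3936, 5623 and 4788 in control and 1168, 837 and 899 in TIG1A cells, a log2 difference of -2.30 ± 0.19 (adjusted p = 0.00453), and 2736, 2588 and 3013 in TIG1B cells. The 3 lines did not overlap, and TIG1A was also below TIG1B (-1.53, adjusted p = 0.0259). RFTN1, a protein of lipid rafts, read 517, 663 and 678 in control, 164, 125 and 136 in TIG1A and 697, 597 and 556 in TIG1B cells, so only the TIG1A arrays were low (-2.12 against TIG1B, adjusted p = 0.0119). Lower signals were also found for a probe set of DIAPH1 (-2.23), a formin that elongates actin filaments and whose 3 probe sets had a median of -0.96, for ZYX (-2.15), the focal adhesion protein zyxin, and for EPN1 (-2.02), an endocytic adaptor. NF2, the tumour suppressor merlin, fell by 2.20 on the log2 scale on a single probe set, a call lost without TIG1A 2 (adjusted p = 0.0576). HMGA1, an architectural chromatin protein, went from 5926, 5751 and 6700 to 1433, 1898 and 1609, and F3, tissue factor, from 4509, 8122 and 3919 to 1726, 1572 and 1068. The ranges of both genes were apart.

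**Figure D2:**
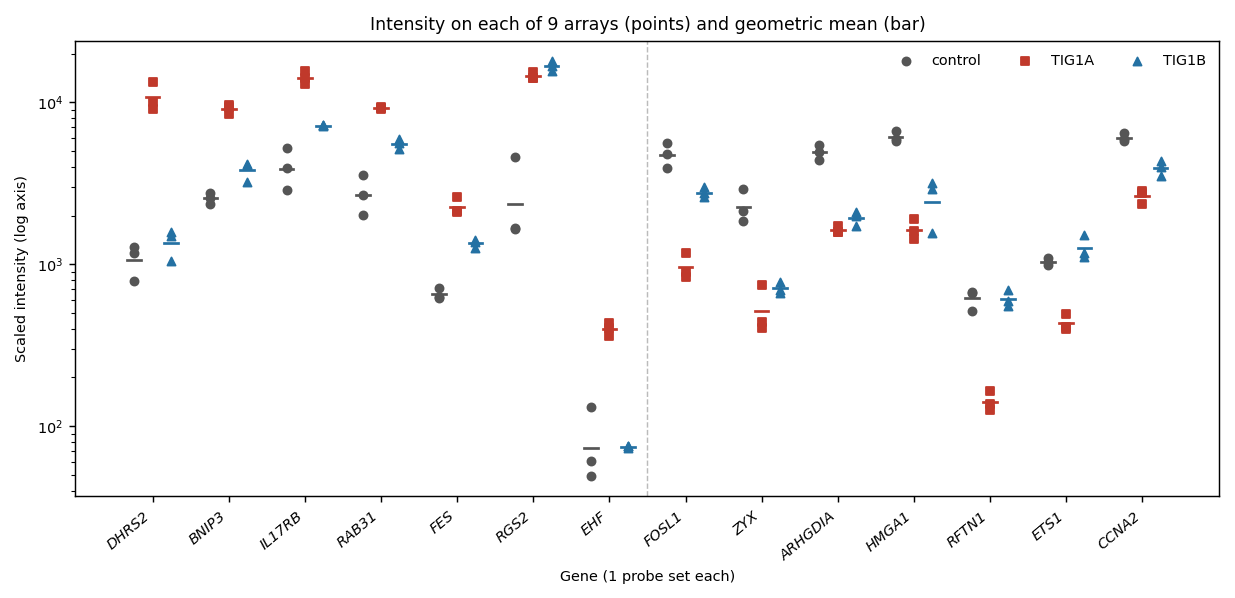
Scaled intensity (vertical log axis) of 14 genes on each of the 9 arrays, with control in grey, TIG1A in red and TIG1B in blue, and bars at the geometric mean of 3 arrays. Genes left of the dashed line were called higher and those right of it lower in TIG1A cells, and only DHRS2, BNIP3, EHF, FOSL1, RFTN1 and ETS1 among them also differed between TIG1A and TIG1B at an adjusted p under 0.05.

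Since a single probe set can be off target, genes with several kept probe sets were examined together. Of 6503 such genes, all probe sets were called higher for 32 (0.492%) and all lower for 34 (0.523%). The higher ones included BNIP3, a mitochondrial protein of mitophagy and cell death, which read 2742, 2363 and 2577 in control, 8425, 9371 and 9671 in TIG1A and 3212, 4184 and 4123 in TIG1B cells on one probe set. Its TIG1A arrays were above all others (1.26 against TIG1B, adjusted p = 0.0259). BNIP3 lies in a stretch of chromosome 10 whose genes had a median of 0.69 in TIG1A and -0.11 in TIG1B cells, described below. Whether its rise belongs to that stretch was not tested. Also called higher on every probe set were IL17RB, a receptor of interleukin 25 (3 probe sets), RAB31, a GTPase of endosomal transport (3), BPTF (5), the histone gene H2BC5, the zinc finger gene GLIS3 and KCNG3, a modifier of potassium channels. Among these, the calls of both BNIP3 probe sets held without any 1 array. Both KCNG3 probe sets and a probe set of H2BC5 held theirs in 3 of 9 such fits, 2 BPTF probe sets in 4 and 6, 2 RAB31 probe sets and an IL17RB probe set in 6 and a GLIS3 probe set in 7. For 4 genes a probe set was called higher and another lower (ARID1A, CTDSPL, FRAS1 and NCKAP1).

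Genes called lower on every probe set included ARHGDIA (4 probe sets). On its first probe set it read 4416, 4929 and 5449 in control and 1573, 1717 and 1573 in TIG1A cells. ZYX, ATN1, PRRC2A, TOR4A, HMGA1, ETV4, GSK3A, PPP1R15A and CCN1 were of the same kind. The calls of 3 of the 4 ARHGDIA probe sets held without any 1 array, as did those of both ZYX and both HMGA1 probe sets. The fourth ARHGDIA probe set and a PRRC2A probe set kept theirs in 3 of 9 such fits, a GSK3A probe set (log2 difference -0.74) and an ETV4 probe set (-1.53) in 1, the other GSK3A probe set in 5, the PPP1R15A probe sets in 4 and 6, those of CCN1 in 4 and 7, an ATN1 probe set in 6 and both of TOR4A in 8. CCN1, a matricellular protein and a target of YAP, read 865, 1311 and 1980 against 319, 424 and 378.

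Genes of mitosis and of DNA replication mostly had values below 0. In the mitosis list 11 of 39 measured genes fell and none rose, against 4.12% and 3.79% of all genes, and the median log2 difference was -0.41, or -0.38 relative to all genes. All but 2 of the 39 had values below 0. CCNA2, the cyclin of S phase and G2, read 5767, 6428 and 5935 in control, 2749, 2817 and 2360 in TIG1A and 4373, 3968 and 3498 in TIG1B cells (log2 difference -1.20 ± 0.14, adjusted p = 0.00868). Every TIG1A array was below every other array. PLK1, a mitotic kinase, fell from 2401, 2855 and 2718 to 1595, 1548 and 1446, and BUB1B, a spindle checkpoint kinase, from 5461, 5734 and 4826 to 3075, 3261 and 3568. ANLN, a scaffold of the cleavage furrow, fell by 0.75 on the log2 scale, NDC80 of the kinetochore by 0.65 and the phosphatase CDC25B by 1.09. The other called members, named after their values were seen, were KIF23, TPX2, MAD2L1, CDCA8 and KIF11. Of 9 fits with 1 array left out, CCNA2 held its call in all 9, PLK1 and ANLN in 6, CDC25B in 4, BUB1B in 3 and NDC80 in 2. The count of 11 became 1, 5, 4, 1 and 1 without control 2, control 3, TIG1A 1, TIG1A 2 and TIG1A 3, and 3 without TIG1B 2 or 3. It was 1 after median centring.

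In the DNA replication list 6 of 35 genes fell and none rose, with a median of -0.48 (-0.45 relative to all genes) and 3 genes above 0. POLD1, the catalytic subunit of DNA polymerase delta, read 1212, 1502 and 938 against 627, 577 and 579. MCM7 of the replicative helicase read 8769, 13943 and 11282 against 5974, 6033 and 5943. Neither gene overlapped between the lines. POLA2 (-0.89), RRM2 (-0.74), LIG1 (-0.79) and MCM3 (-0.72) also passed, which are a primase-polymerase subunit, the small subunit of ribonucleotide reductase, DNA ligase and a helicase subunit. The count depended on single arrays, with 16 without control 1, 3 without control 3, and 0 without control 2, without any 1 TIG1A array or without TIG1B 2 or 3, and also 0 after median centring. No gene of the mitosis or DNA replication lists differed between TIG1A and TIG1B cells at an adjusted p under 0.05.

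Promoters of mitotic genes are known for a CCAAT box and for the cell cycle element TTTGAA. Both were searched on both strands in the window from 250 bases before to 50 after the start of each gene (RefSeq, 1 promoter per gene). Of the 39 mitosis genes 33 had an entry. CCAAT was found in 75.8% of them, in 36.6% of 10555 measured genes and in 35.7% of all 27305 promoters, and TTTGAA in 63.6%, 9.85% and 15.4%. Of the 10 called genes with an entry, 6 held CCAAT and 8 held TTTGAA. In the DNA replication list CCAAT was found in 56.7% and TTTGAA in 3.33% of 30 promoters. The promoters of the 3 mitosis genes with values given above are shown 5′ to 3′, with matches to either motif in capitals on the strand printed (ATTGG and TTCAAA are the other strand).
CCNA2 (GRCh38.p14, chr4:121823834-121824133, - strand): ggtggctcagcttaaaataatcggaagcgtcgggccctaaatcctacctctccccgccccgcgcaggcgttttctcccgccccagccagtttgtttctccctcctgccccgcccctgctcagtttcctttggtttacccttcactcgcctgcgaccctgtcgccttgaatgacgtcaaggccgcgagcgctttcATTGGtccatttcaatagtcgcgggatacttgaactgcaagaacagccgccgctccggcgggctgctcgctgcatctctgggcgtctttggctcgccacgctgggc
PLK1 (GRCh38.p14, chr16:23678639-23678938, + strand): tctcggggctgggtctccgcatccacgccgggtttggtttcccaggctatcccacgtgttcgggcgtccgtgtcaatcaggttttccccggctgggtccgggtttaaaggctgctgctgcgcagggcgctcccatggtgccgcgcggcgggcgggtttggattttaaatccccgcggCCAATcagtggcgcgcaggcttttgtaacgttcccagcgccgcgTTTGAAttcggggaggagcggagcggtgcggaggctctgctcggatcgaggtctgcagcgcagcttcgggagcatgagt
BUB1B (GRCh38.p14, chr15:40160819-40161118, + strand): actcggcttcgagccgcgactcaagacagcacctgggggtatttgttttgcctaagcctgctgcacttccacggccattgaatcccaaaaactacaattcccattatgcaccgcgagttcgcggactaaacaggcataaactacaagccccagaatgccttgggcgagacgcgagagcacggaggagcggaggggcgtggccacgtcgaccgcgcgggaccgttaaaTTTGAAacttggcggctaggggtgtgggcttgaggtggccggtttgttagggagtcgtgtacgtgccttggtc
The window of CCNA2 holds CCAAT once and no TTTGAA, that of PLK1 both once, and that of BUB1B TTTGAA once. A match is a run of letters and was not tested as a site.

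Genes of the respiratory chain, which pass electrons to oxygen and make ATP in mitochondria, mostly had positive values. Of 58 measured genes 54 were above 0, against 6241 of 13050 genes, and the median was 0.32 (0.35 relative to all genes), but 3 passed the test. NDUFB7 of complex I read 1665, 1424 and 1139 against 3383, 3192 and 2940 (log2 difference 1.19, adjusted p = 0.0129). COX6C rose by 0.74 and NDUFA8 by 0.56. NDUFB7 held its call without any 1 array, while the count became 9 without control 1, and 1 without control 2, control 3, any 1 TIG1A array, TIG1B 2 or TIG1B 3. After median centring 11 passed, and after quantile normalisation 2 passed, with a list median of 0.23. Ribosomal protein genes had a narrow spread around a median of 0.14 (-0.03 for all genes), with 49 of 52 above 0 and RPL27A alone called (1.75). After quantile normalisation their median was 0.02.

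Receptor tyrosine kinases and the ERK pathway below them showed single members moving. FGFR3, a fibroblast growth factor receptor, read 3056, 2114 and 2031 against 6242, 7405 and 7703, and ERBB3 rose by 0.74. EPHA2, ERBB2, TYRO3 and AXL fell by 0.86, 0.73, 0.98 and 1.01 on the log2 scale, making 3 higher, FGFR2 among them, and 4 lower of 24, against 3.79% and 4.12% of all genes, with a list median of -0.008. After median centring 4 were higher and 1 lower, and without TIG1A 2 or 3 none was called. The total of 7 was 1 without control 2, 3 without TIG1A 1 and 4 without TIG1B 2 or 3. No array of FGFR3 in TIG1A cells was below a control array, yet its call was lost without control 2, TIG1A 2 or TIG1A 3. Of the ERK phosphatases and ETS factors, DUSP5, which dephosphorylates nuclear ERK, read 5443, 4897 and 3862 in control, 1538, 1619 and 1520 in TIG1A and 3356, 3435 and 2917 in TIG1B cells. ETS1 read 987, 1092 and 1032, then 401, 410 and 491, then 1173, 1525 and 1106. TIG1A was below TIG1B for both (-1.05, adjusted p = 0.0441, and -1.54, adjusted p = 0.0243). EHF, an epithelial ETS factor, went the other way, from 131, 60.7 and 49.5 to 436, 362 and 403, with 73.7, 75.4 and 75.5 in TIG1B cells (2.42, adjusted p = 0.0336). The tyrosine kinase FES read 709, 628 and 620 against 2598, 2128 and 2102.

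Chromatin genes were called lower more than higher among the KMT2, SETD1 and SWI/SNF subunits, with 7 lower and 2 higher of 33 (median -0.08 against -0.03 for all genes, or 0.09 after median centring). KMT2C, which methylates histone H3 at enhancers, rose from 1115, 958 and 1229 to 3306, 2716 and 3109. The other rise was ARID1A on its brightest probe set (0.95), a call held in 6 of 9 fits with 1 array left out. Of its 4 probe sets 2 were called lower, and their median was -0.63, so its direction is not settled. The SWI/SNF subunits SMARCC1, SMARCC2, BRD7 and BRD9 fell by 0.69, 0.83, 0.73 and 0.71. After median centring none of the list was called lower and 2 were higher. The 7 became 9 without control 1, 5 without TIG1B 1, 2 without control 3 or TIG1A 1, 1 without TIG1A 2, and 0 without control 2, TIG1A 3, TIG1B 2 or TIG1B 3. Of 22 measured histone genes 4 rose and none fell, against 3.79% and 4.12% of all genes, and the median was 0.37, or 0.22 to 0.62 with 1 array left out. There were 2 rises without TIG1A 2, 7 after median centring and 6 after quantile normalisation. H4C11 read 44.1, 42.3 and 59.4 in control and 355, 279 and 308 in TIG1A cells, at least 4.36-fold, and H2BC5 read 767, 550 and 694 against 2449, 2034 and 2389. H2BC5 also differed from TIG1B (1.16, adjusted p = 0.0338). Histone genes are near-identical in sequence, and a signal may come from several of them.

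Epithelial genes gave no common direction, with 2 of 26 junction and keratin genes higher and 4 lower, against 3.79% and 4.12% of all genes, and a median of -0.10. CDH1, E-cadherin, rose by 0.59 and GRHL2, an epithelial transcription factor, by 0.87, while PKP2 and PKP3 of the desmosome, KRT19 and ITGB4 fell by 0.91, 0.55, 0.66 and 0.88. Without TIG1A 2 no gene of the list was called, without control 2 it was 1 higher and 1 lower, and without TIG1A 3 1 lower, while without TIG1B 2 it was 1 higher and 2 lower. After median centring 3 were higher and 1 lower. S100A4, a calcium-binding protein of motile cells, read 713, 355 and 292 in control, 1760, 1525 and 1389 in TIG1A and 374, 340 and 343 in TIG1B cells (2.14 against TIG1B, adjusted p = 0.0373). Its call against control was lost without control 2 or TIG1A 2. In the list of mesenchymal transition genes 1 of 8 rose and 1 fell, against 3.79% and 4.12% of all genes, with a median of -0.39. AXIN2, a feedback inhibitor and target of Wnt signalling, rose from 494, 660 and 889 to 1626, 1638 and 1659, and SOX9 fell by 0.90. The AXIN2 call held in 6 and the SOX9 call in 2 of 9 fits with 1 array left out. In the list of Wnt targets and intestinal stem cell genes 2 of 16 rose (AXIN2 and PPARD, the latter named after its values were seen) and 1 fell, with a median of -0.40, and none was called without control 2, TIG1A 2 or TIG1A 3. Of the fibroblast markers 2 were measured. COL1A1 rose by 1.48, a call lost without control 2 or TIG1A 3, and THY1 had a log2 difference of -0.61 (adjusted p = 0.684). The summed signal of the 10 fibroblast markers was 653.6 to 1218.7 in control and 1477.2 to 2000.1 in TIG1A cells, with LUM, PDGFRA, PDGFRB, POSTN and FAP below the median on all 9 arrays. The 12 markers of HCT116 summed to 119466.9 to 132232.5 and 109759.8 to 123192.3. The sums of the other marker lists were lower in TIG1A than in control cells. They were 372.3 to 460.8 and 209.9 to 251.2 for leukocyte and 326.9 to 361.3 and 210.4 to 238.4 for endothelial markers. For neural markers they were 15969.9 to 20502.0 and 12340.9 to 15116.8, with control first. In bulk RNA fewer cells of a type and less RNA per cell cannot be told apart, and the part of other cells in these values was not tested.

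Genes of the receptors of mifepristone and their targets were higher in part, with 4 of 17 up and none down, against 3.79% and 4.12% of all genes. Their median was 0.15 in TIG1A as in TIG1B cells. CEBPD read 1434, 1060 and 954 against 3077, 2339 and 2788, FKBP5 7901, 6540 and 5385 against 12166, 11176 and 11515, and SGK1 and NR3C1, the glucocorticoid receptor, rose by 0.74 and 1.02. All cultures had received the drug, so these are differences between lines. CEBPD held its call without any 1 array, SGK1 in 3 of 9 such fits, FKBP5 in 2 and NR3C1 in 1, and the count was 6 without control 1. Of 34 interferon-stimulated genes 30 were above 0 (median 0.34, with 0.13 in TIG1B cells), and 3 rose and none fell. These were PARP9, ISG20 and IFI44, called in 2, 2 and 1 of 9 fits with 1 array left out. The list had 9 rises without control 1, 2 without TIG1B 1, none without any other 1 array and 5 after median centring. Amino acid transporters had 3 falls and no rise of 23 and a median of -0.04, near that of all genes: SLC7A5, which imports leucine, went from 9300, 12689 and 10893 to 5107, 4256 and 4241, and SLC1A5 and SLC38A5 fell by 1.34 and 0.86. SLC7A5 held its call without any 1 array, SLC1A5 in 5 of 9 such fits and SLC38A5 in 1. Of 25 genes of clathrin and its adaptors none rose and 3 fell, against 4.12% of all genes, and the median was -0.26, with -0.21 in TIG1B cells. The falls were AP2A1 (-1.22), AP1M1 (-1.19) and EPN1 (-2.02). All 3 genes lie on chromosome 19, where 8.68% of measured genes fell. Whether their falls belong to that chromosome or to the list was not tested. Each of these 3 calls held without any 1 array, and 5 genes of the list were called without control 1.

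**Figure D3:**
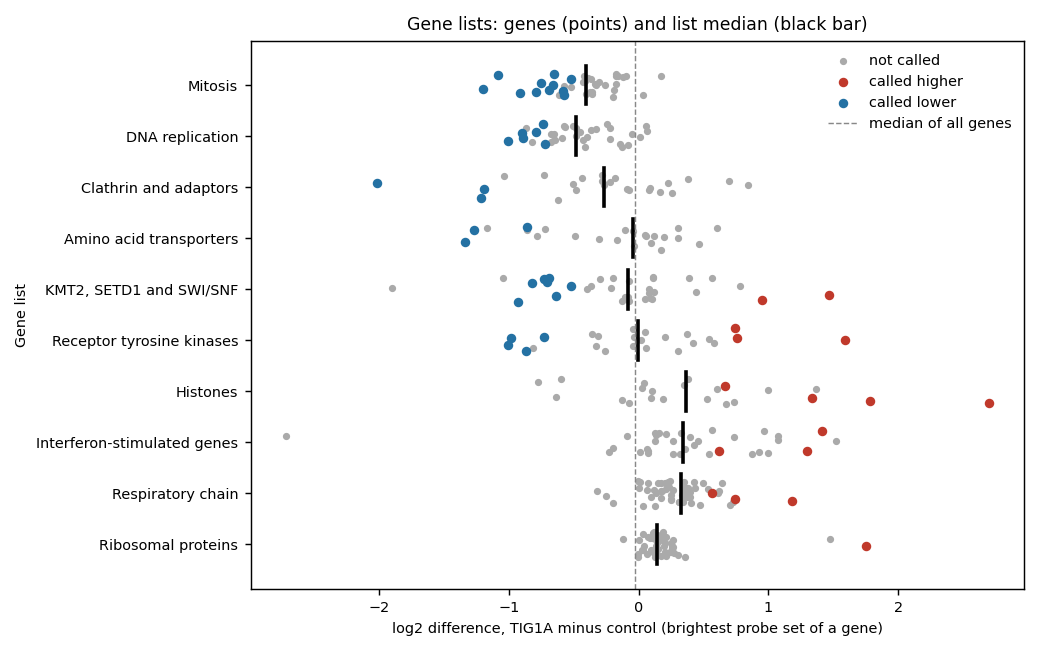
Log2 difference of TIG1A minus control (horizontal axis) of each measured gene of 10 lists (vertical axis), 1 point per gene on its brightest probe set. Red and blue points are genes called higher and lower, black bars are list medians, and the dashed line is the median of all genes at -0.03. Mitosis (median -0.41) and DNA replication (-0.48) lie left of it and respiratory chain (0.32) right of it.

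Some stretches of neighbouring genes had medians away from 0. In runs of 25 genes in order along the chromosomes (511 runs, GRCh38.p14 gene order), the 5th and 95th percentiles of the run medians were -0.31 and 0.21. The run with the highest median was on chromosome 10, from C10orf90 to CYP2E1 (27 genes, median 0.69, 8 higher and none lower), and the next on chromosome 8 from PYCR3 to C8orf33 (48 genes, median 0.63, 16 higher and 2 lower). The same runs had medians of -0.11 and -0.09 in TIG1B against control cells, a comparison that shares the control arrays. The lowest was on chromosome 19 from DNAAF3 to NLRP5 (median -0.58, with -0.49 in TIG1B cells), and a low one on chromosome 11 ran from TRMT112 to CDC42EP2 (median -0.53, with 0.06 in TIG1B cells). By chromosome, 9.51% of measured genes of chromosome 8 rose, against 3.79% of all genes, and 8.68% of those of chromosome 19 fell, against 4.12%. The median of chromosome 19 was -0.14 in TIG1A and -0.21 in TIG1B cells. These runs were picked for their medians and carry no test. GRK5 lies in the run on chromosome 10 from ATRNL1 to ATE1 (25 genes, median 0.25, 4 higher and none lower, with 0.08 in TIG1B cells). FOSL1 closes the run on chromosome 11 from DPF2 (median -0.13, with 0.15 in TIG1B cells and -0.36 for TIG1A minus TIG1B). BNIP3 lies in the chromosome 10 run with the highest median, SLC39A4 in the next on chromosome 8, and FGFR2 in that of GRK5. COX6C and GRHL2 lie in the chromosome 8 run from RIDA to RIMS2 (7 of 25 higher, none lower, median 0.47, 0.095 in TIG1B cells). POLA2 lies in the low run on chromosome 11, and EPN1 in the lowest run on chromosome 19. ETS1 lies in the last run of chromosome 11, from RPUSD4 (median -0.28, and -0.38 for TIG1A minus TIG1B). Whether the change of a gene belongs to its stretch was not tested, and the remaining named genes were not placed in runs here.

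**Figure D4:**
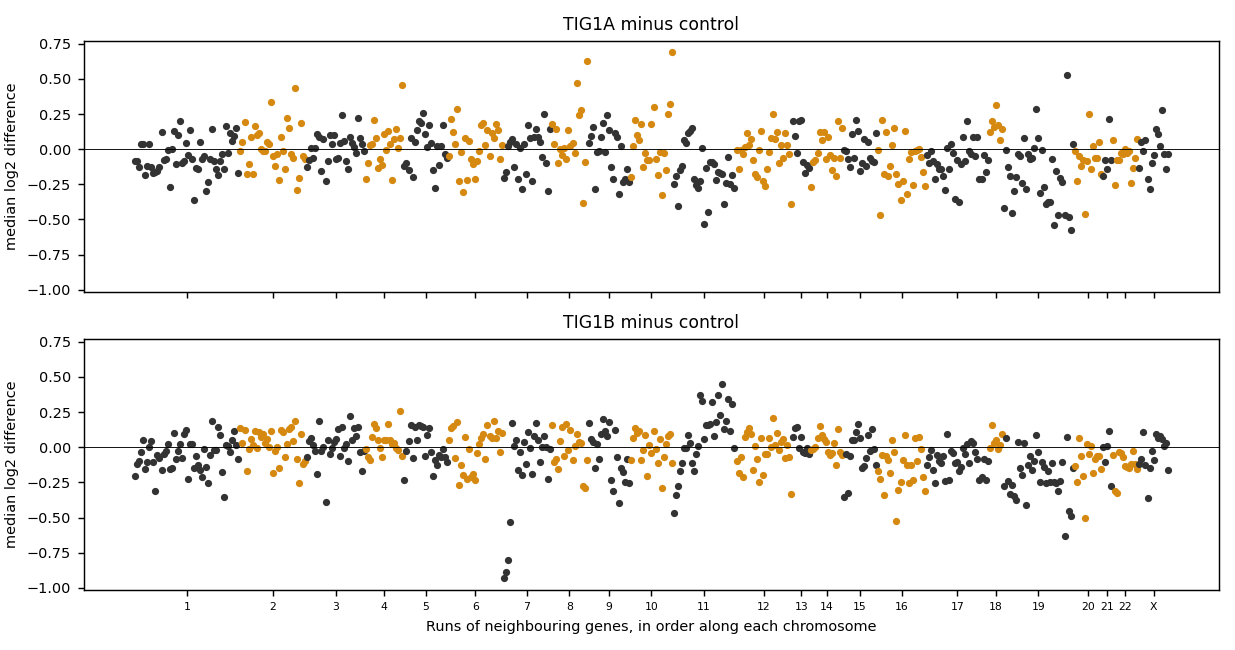
Median log2 difference against control (vertical axis) of each run of neighbouring genes in order along each chromosome (horizontal axis), in TIG1A (upper panel) and TIG1B (lower panel) cells, with alternate chromosomes in black and orange. In the upper panel the highest points are on chromosome 10 (0.69) and chromosome 8 (0.63).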

How the data were processed

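Total RNA of HCT116 stable clones was measured on 9 arrays, 3 each of control, TIG1A and TIG1B cells after 5 nM MFP for 24 h. Each value is 1 intensity per probe set on a linear scale, which the authors made with GCOS and scaled globally per array before they deposited it. The mean of each array without its lowest and highest 2% was 500.1, and no pair of arrays was identical. The series description gives MFP in micromolar, whereas the labels and the methods give nanomolar. How the replicates were taken is given as biological triplicates of 1 clone, so p-values measure the spread between cultures of a line.

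The array's own 62 controls were left out, intensities under 1 were set to 1 and log2 was taken. A probe set was kept when it was no dimmer than the array median on 2 or more arrays of control or TIG1A. A mean per group was fitted to all 9 arrays with limma 3.58.1 in R 4.3.3 (6 residual and 1.91 prior degrees of freedom), with the Benjamini-Hochberg threshold at 0.05 and a fold limit of 2. Where all arrays of a line lay below their medians, folds are lower bounds against those medians. One symbol was given for 41091 probe sets, several for 1801 and none for 11721, and 41037 matched the GRCh38.p14 gene table. The fit was also run on simulated arrays with known changes, and the outcome is not given here.

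Named genes were RARRES1 and the study's further genes, of which some are not analysed here, the 12 largest rises and falls above the median on all 6 arrays, the 10 genes called the same way on every probe set with the largest median, and up to 6 called members of each of 51 lists, 1 of which is not reported here. Members and lists were chosen with earlier results of these data known. Lists are described by counts and medians, to be read against those of all genes. The alternatives tried were quantile normalisation, median centring, an offset of 50, an intensity filter at the 75th percentile or none, 6 arrays alone, a replicate block, eBayes with trend and robust options, the methods' t-test and each array left out. Precision is limited by having 3 arrays per line.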

Additional observations from a re-analysis of the deposited data

How the results depend on the processing

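Against 2008 called probe sets, of which 1003 changed at least 2-fold, the count was 59 with no filter (59 at least 2-fold), 3627 with the filter at the 75th percentile, 367 with 6 arrays alone (356), 3618 with trend and robust options, 6121 by the methods' t-test unadjusted (1591) and 123 after Benjamini-Hochberg adjustment (62). With 1 array left out it ranged from 520 to 3379, and at least 2-fold from 437 to 1649. Replicate numbers were entered as a block, which left 776 (593). Same-numbered control and TIG1A arrays did not deviate together (correlations -0.0073, 0.0069 and 0.0048), so the numbers do not pair them. Median centring moved the split at 2-fold from 50.8% to 75.4% higher. RARRES1 kept its call on both probe sets except by the methods' t-test after adjustment, where the probe set with a fitted log2 difference of 10.96, no bound since its control arrays lie below the medians (at least 661-fold), had adjusted p = 0.0648. Of 210 other named probe sets, the one value that turned its direction was that of THY1, which was not called (log2 difference -0.61, adjusted p = 0.684). It ranged from -1.44 to 0.19 with 1 array left out, the latter without TIG1A 2 (adjusted p = 0.90). Of 186 called named probe sets refitted with each array left out, 75 kept their call in all 9, and 101, 100 and 103 lost it without control 2, TIG1A 2 and TIG1A 3. The cause of these changes was not tested.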

Other observations

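Further groups gave a few called members each. Of the hypoxia and glycolysis genes 4 of 38 rose and 2 fell, against 3.79% and 4.12% of all genes, with a median of 0.17. BNIP3 and EGLN1 were among the rises. PFKFB3, which raises glycolytic flux, went from 861, 795 and 925 to 1992, 2005 and 1859, and ENO2 rose by 0.82 and stood above TIG1B by 1.18 (adjusted p = 0.0338), whereas PFKP and PKM fell by 1.00 and 0.53 on the log2 scale. BNIP3 and PFKFB3 held their calls without any 1 array, PFKP in 5, ENO2 in 3 and PKM in 1 of 9 such fits. The list had 10 rises and 3 falls without control 1, 2 and 0 without control 2, TIG1A 2 or TIG1A 3, and 6 and 1 after median centring. A probe set assigned to SOD2, the mitochondrial superoxide dismutase, read 525, 521 and 449 against 1442, 1304 and 1424. The study lists this probe set as a transcribed locus without a gene symbol. Whether its signal is that of the SOD2 transcript was not tested. CRELD2, a gene of the unfolded protein response, read 8242, 9239 and 13912 against 29742, 26648 and 27839, and its lines did not overlap. MED15 of the Mediator complex read 1814, 1634 and 1811 against 519, 563 and 691, and the splicing factor HNRNPL 13090, 14156 and 15093 against 6272, 6020 and 5110.

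Tubulin tyrosine ligase, TTL, which restores the terminal tyrosine of tubulin, rose from 2573, 1923 and 1773 to 3531, 3684 and 4017, a call that held in 2 of 9 fits with 1 array left out. SLC39A4, a zinc importer, read 3169, 3326 and 2636 against 8382, 6759 and 6342, and the organic anion transporter SLCO4A1 fell from 1205, 1666 and 1515 to 543, 598 and 600.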
